A study of Homo sapiens with 60 samples.

Results

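The genes described here are 10 genes of the immediate-early and early growth-response kind, IER3, ARC, HBEGF, EGR1, IER2, IER5, NR4A1, MYC, KLF6, and ZFP36. They were taken by name from a table of counts for 62703 human genes, and all 10 were among the 12341 genes with enough counts to be tested. They were selected on the LFC (log2 fold change) of arsenic against cadmium and mercury, with earlier results of the same libraries known. The direct comparison of arsenic with the other metals is therefore given as a description, and IER3 and ARC, which were named after their values had been seen, are described without a test in any comparison between metals or with non-treated cells of the same time. The other 8 genes are tested, but since the values of all 3 metals were known when the genes were picked, none of these tests is independent of the choice.

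Immediate-early genes are switched on within minutes of a stimulus by transcription factors that are already present in the cell, and they need no new protein for it. Serum response factor, bound to CArG boxes, and CREB are classic activators, and the transcripts are usually short-lived, so that their level follows the signal closely. The products include transcription factors (EGR1, NR4A1, MYC, KLF6), related nuclear proteins (IER2, IER5), and a growth factor (HBEGF). Others are an RNA-decay factor (ZFP36) and regulators of survival and of the synapse (IER3, ARC). Arsenite, cadmium, and mercury ions bind protein thiols and are known inducers of stress kinases and of heat-shock and oxidative-stress genes.

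The study used 1321N1, an established astrocytoma cell line, and followed its RNA for a day under each of 3 metals, so that the metals could be compared time point by time point. Cells received fresh medium with sodium metaarsenite at 2.55 µM, cadmium chloride at 2.3 µM, or mercury chloride at 20 µM, doses that the authors had chosen as equally toxic, or were left non-treated. RNA was taken at 5 time points (1.5 h, 3 h, 6 h, 12 h, and 24 h), with 3 libraries for each of the 20 groups and 60 libraries in all. All groups are the same unmodified line in serum-containing medium, and each metal was given at 1 dose, so that a difference between metals is a difference between these doses.

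Each library held between 2215276 and 4404609 counted reads, and levels are given as CPM (counts scaled to the TMM-normalized library size), in which 3 counts equal between 0.681 and 1.35 CPM. Because the reads come from the 3′ end of transcripts, the levels of different genes are not compared with each other. Replicates correlated at 0.958 to 0.977 across genes. The labels call the triplicates technical, so p-values may cover only the spread between these libraries and not that between cultures. Of 10 astrocyte markers, VIM (3010 to 5770 CPM), CD44 (222 to 498 CPM), and SOX9 (29.6 to 123 CPM) were well measured, but VIM and CD44 are shared by many other cell types. NES was low (0.329 to 7.69 CPM), SLC1A3 had a median of 3 counts, and AQP4, ALDH1L1, S100B, GFAP, and SLC1A2 had 0 counts in 60, 60, 59, 57, and 47 of the 60 libraries. The neuron markers SYT1 (5.83 to 21.7 CPM) and GAD1 (4.66 to 20.1 CPM) were present in every library, so these markers do not settle a glial identity. In bulk RNA, fewer cells with a transcript and less transcript per cell cannot be told apart.

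The promoters bear on how such genes are read, and RefSeq promoter sequences (GRCh38.p14) were at hand for 7 of the 10, namely EGR1, HBEGF, IER2, IER5, KLF6, NR4A1, and ZFP36. In the 250 bases before the start site, searched on both strands, EGR1 was the 1 member promoter of 7 with a CArG box (CC, then 6 bases that are A or T, then GG), which 1.16% of all 35116 promoters held. It had 2 of them, which are shown in capitals because EGR1 had the highest LFC of the 10 genes at 1.5 h. IER5 was the 1 member promoter with GAANNTTC, a letter pattern of heat-shock elements that 5.78% of all promoters held, shown because IER5 was higher with cadmium and mercury and lower with arsenic at 12 h. Both stretches are from the plus strand, EGR1 at chr5:138465364-138465423 and IER5 at chr1:181088455-181088500.
EGR1: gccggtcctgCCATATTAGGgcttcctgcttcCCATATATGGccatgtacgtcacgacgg
IER5: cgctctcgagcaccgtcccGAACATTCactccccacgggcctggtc

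The remaining patterns were in more promoters or in none of the 7. TGACG, the short form of the cAMP response element, was in the promoters of EGR1 and IER2 and in 21.22% of all promoters. TGCNCNC, the core of the metal response element, was in EGR1, IER2, and KLF6 and in 49.1% of all promoters. TGACNNNGC, a pattern of antioxidant elements, was in ZFP36 and in 10.91% of all promoters. TGACGTCA (1.65% of promoters), TGANTCA (6.57%), and TGATGCAA (0.772%) matched none of the 7 promoters in this window. A match here is a match of letters, and binding was not measured.

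The genes lie on 7 chromosomes, and positions are those of GRCh38 in the count table. IER3 is at chr6:30743199-30744548 and ARC at chr8:142611049-142614479, both on the minus strand. HBEGF (chr5:140332843-140346603, minus strand) and EGR1 (chr5:138465479-138469303, plus strand) share chromosome 5, and IER2 (chr19:13150411-13154911) and ZFP36 (chr19:39406847-39409412) are both on the plus strand of chromosome 19. IER5 (chr1:181088700-181092900), NR4A1 (chr12:52022832-52059507), and MYC (chr8:127735434-127742951) are on the plus strand and KLF6 (chr10:3775996-3785281) on the minus strand. In GENCODE 44, 0% of the exonic bases of any of the 10 genes overlapped another gene on the same strand.

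Each gene was compared between groups in a single edgeR model of all 60 libraries. An LFC is given with its standard error (SE), and a gene was called higher or lower at an adjusted p under 0.05 (quasi-likelihood test, Benjamini-Hochberg over all 12341 genes within a comparison). Of the 10 genes, HBEGF, EGR1, IER2, IER5, and KLF6 had at least 10 counts in every library. ZFP36 had as many in all libraries of only 4 of the 20 groups, NR4A1 in 10, IER3 in 11, ARC in 12, and MYC in 15.

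**Figure D1:**
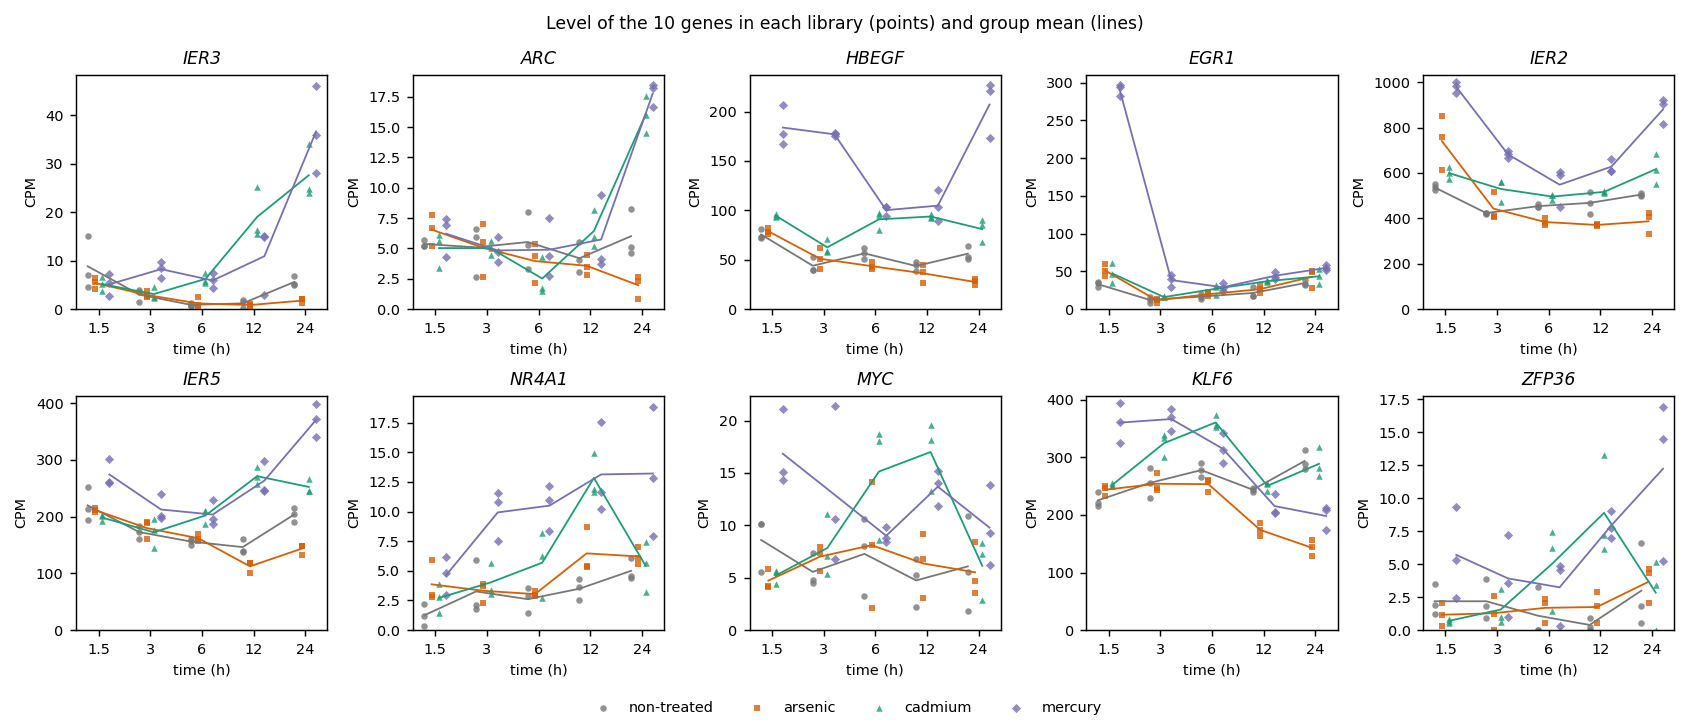
Level of each of the 10 genes in CPM (vertical axis, from 0, its own scale for each gene) at the 5 time points (horizontal axis, evenly spaced) in non-treated, arsenic, cadmium, and mercury libraries. Points are the 3 libraries of a group and lines join the group means. At 24 h, the arsenic points of IER3, ARC, HBEGF, IER2, IER5, and KLF6 lie below all non-treated points.

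Without metal, several of the genes were lower at 3 h, 6 h, or 12 h than at 1.5 h. Of the 10 genes, 2 were lower at 3 h (0.122% of all genes were), 3 at 6 h (0.276%), and 3 at 12 h (1.75%), and at 24 h 2 were higher (1.84%). EGR1, a zinc-finger transcription factor, fell from 33.0 ± 3.55 CPM (SD, n = 3) at 1.5 h to 12.2 ± 3.78 CPM at 3 h, an LFC of -1.43 ± 0.23 (adjusted p = 0.000207), and stood at 34.3 ± 3.3 CPM at 24 h. IER3 fell from 8.83 ± 5.56 CPM at 1.5 h to 0.864 ± 0.313 CPM at 6 h (adjusted p = 0.000868) and 1.17 ± 0.817 CPM at 12 h (adjusted p = 0.000249). At 6 and 12 h it had between 1 and 6 counts per library, and DESeq2 gave no adjusted p for it. Since IER3 was named after its values had been seen, and these libraries are the baseline of its ratios, its calls here only describe it. HBEGF was lower at 3 h (LFC -0.78 ± 0.14, adjusted p = 0.00157) and 12 h (-0.80 ± 0.14, adjusted p = 0.000264), and IER5 at 6 h (-0.49 ± 0.10, adjusted p = 0.00632) and 12 h (-0.59 ± 0.10, adjusted p = 0.000129). At 24 h, NR4A1 was higher by an LFC of 1.93 ± 0.53 (adjusted p = 0.0241) and KLF6 by 0.38 ± 0.09 (adjusted p = 0.00589). EGR1 was also lower at 6 h (-0.99 ± 0.23, adjusted p = 0.0234). The NR4A1 call was lost when any of 5 of its 6 libraries was left out (highest adjusted p = 0.193), and its non-treated counts at 1.5 h were 7, 1, and 3. Leaving out single libraries also ended the calls of HBEGF at 3 h (non-treated replicate 1 or 3 of 3 h, highest adjusted p = 0.0629), EGR1 at 6 h (4 libraries, 0.202), IER5 at 6 h (replicate 1 of 1.5 or 6 h, 0.156), and KLF6 at 24 h (replicate 3 of 1.5 h or 1 of 24 h, 0.0778). Below, each metal is set against the non-treated libraries of its own time point, and the baseline of IER3 is low at 6 and 12 h, the time points of its highest ratios with cadmium and mercury.

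Against this baseline the 3 metals differed in timing and direction. Of the 8 genes tested (all but IER3 and ARC), mercury had 4 higher at 1.5 h (0.478% of all genes were), 5 at 3 h (1.39%), 4 at 6 h (4.49%), 7 of them at 12 h (8.89%), and 6 at 24 h (13.9%), with 1 lower at 24 h (13.9%). Cadmium had 3 higher at 6 h (1.6%), 6 at 12 h (5.19%), and 1 at 24 h (1.56%). Cadmium called 0 of the 8 at 1.5 h (0% of all genes) and at 3 h (0.203% higher) by edgeR, where 2 and 3 had an unadjusted p under 0.05, all on the higher side, and DESeq2, which gave no adjusted p for 3 genes at 3 h, called 0 and 1. Arsenic had 1 higher at 1.5 h (0.0648%), then 3 lower at 12 h (1.74%) and 4 lower at 24 h (7.75%). At 3 h (0.122% of all genes higher, 0.0162% lower) and 6 h (0.608% higher, 0.308% lower), arsenic called 0 of the 8 by edgeR, with 0 and 2 at an unadjusted p under 0.05, and DESeq2 also called 0 but gave no adjusted p for 3 genes (MYC, NR4A1, and ZFP36) at 3 h.

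Over the 5 time points this made 26 higher and 1 lower of 40 values for mercury, 10 and 0 for cadmium, and 1 and 7 for arsenic. With cadmium, 0 were also lower at an unadjusted p under 0.05 and by DESeq2, which gave no adjusted p for 3 values at 3 h and 1 at 6 h, while 0%, 0%, 0.446%, 2.99%, and 0.632% of all genes were lower at the 5 time points. The median LFC of all 10 genes at 24 h was 1.13 with mercury, 0.30 with cadmium, and -0.45 with arsenic, and it reached 1 with cadmium at 12 h, whereas the median of all 12341 genes lay between -0.02 and 0.01 in these comparisons. IER3 and ZFP36 had few non-treated counts at 12 h, but with cadmium both lie above the median there at either end of their counting intervals. The metals share the non-treated libraries, so these counts are not independent of each other. The values of all 3 metals were known when the genes were chosen, so the calls describe these genes and are no independent evidence about the group.

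**Figure D2:**
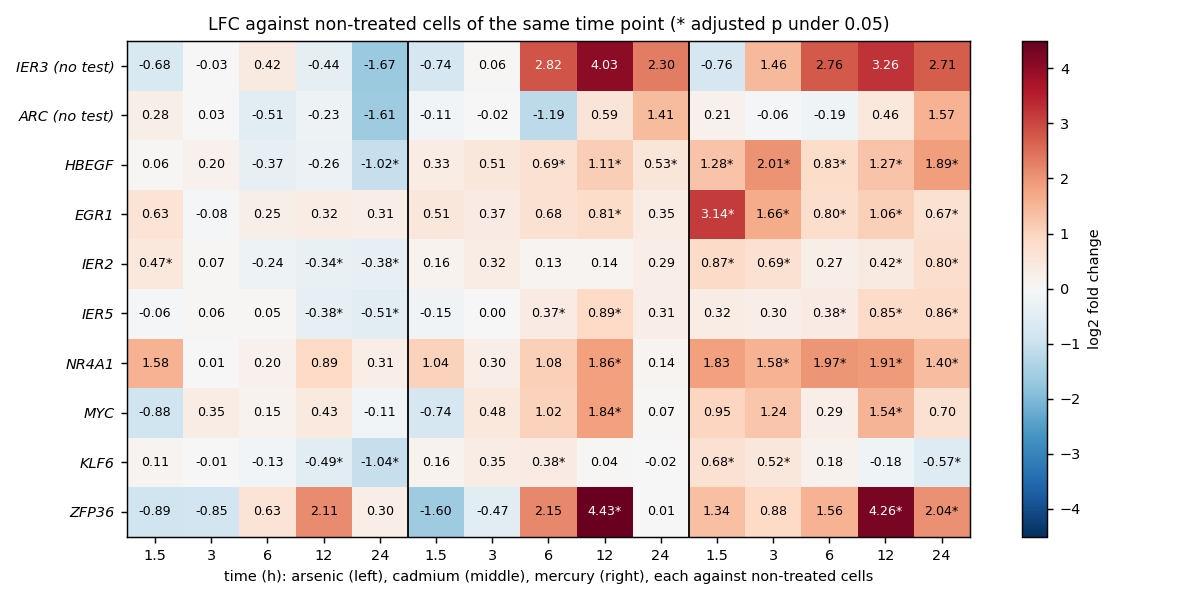
LFC of the 10 genes (rows) against non-treated cells at the 5 time points (columns, in h) for arsenic, cadmium, and mercury, with the value in each cell and an asterisk at an adjusted p under 0.05 (IER3 and ARC have no test). With arsenic, values above 0 number 4 of 10 at 12 h and 3 of 10 at 24 h, whereas with cadmium they number 10 and 9 and with mercury 9 and 9.

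HBEGF encodes a membrane-anchored ligand of the EGF receptor that is shed under stress, and its arsenic libraries lay below all mercury libraries at every time point. At 1.5 h, its level was 80.7, 73.4, and 72.3 CPM in the non-treated libraries, 78.1, 82.0, and 76.0 CPM with arsenic, 93.4, 94.4, and 96.1 CPM with cadmium, and 167, 178, and 207 CPM with mercury. Only mercury was called at this time (LFC 1.28 ± 0.13, adjusted p = 4.25e-11), and it stayed higher at every time point, with its highest LFC at 3 h (2.01 ± 0.14, adjusted p = 8.12e-19). Cadmium was higher at 6 h (0.69 ± 0.14, adjusted p = 0.000973), 12 h (1.11 ± 0.14, adjusted p = 1.42e-08), and later at 24 h (0.53 ± 0.14, adjusted p = 0.02).

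At 24 h, HBEGF was 53.2, 64.1, and 50.9 CPM in non-treated libraries and 24.4, 30, and 27.9 CPM with arsenic, whereas cadmium gave 85.2, 67.7, and 89.9 CPM and mercury 221, 173, and 227 CPM. The 4 groups did not overlap, in the order arsenic, non-treated, cadmium, mercury. The arsenic LFC was -1.02 ± 0.15 (adjusted p = 4.88e-07), and it was called with any of the 6 libraries left out, at an LFC of -1.09 to -0.92. The cadmium call at 24 h was less firm, since it was lost without non-treated replicate 1 or 3 or cadmium replicate 1 or 3 (adjusted p = 0.097 to 0.106).

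IER3 encodes a short-lived protein that modulates survival signaling downstream of ERK and NF-κB. At 1.5 h, it had 4.45, 6.96, and 15.1 CPM in the non-treated libraries, and all 9 metal libraries lay between 2.66 and 7.20 CPM. At 6 h, arsenic overlapped the non-treated libraries and the other metals did not, since arsenic libraries had 2.39, 0.800, and 0.289 CPM, cadmium libraries 5.35, 5.84, and 7.45 CPM, and mercury libraries 4.25, 6.08, and 7.35 CPM, against 1.22, 0.729, and 0.640 CPM without metal. The non-treated values are 3, 2, and 2 counts. As a ratio of summed counts per depth with its exact 95% interval, which covers counting error only, cadmium to non-treated was 7.34 (3.33 to 19.1), mercury to non-treated 7.14 (3.28 to 18.5), and arsenic to non-treated 1.35 (0.491 to 4.05).

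The gap in IER3 widened at 12 h and 24 h. At 12 h, IER3 had 0.559, 0.861, and 1.05 CPM with arsenic and 1.40, 1.85, and 0.261 CPM without metal, but 16.3, 15.5, and 25.2 CPM with cadmium and 2.86, 14.9, and 15 CPM with mercury, in which replicate 1 stood apart from the other two. At 24 h, the arsenic libraries had 2.00, 1.15, and 2.06 CPM, all below the non-treated 5.14, 6.75, and 4.89 CPM, and cadmium (24.0, 24.8, and 34.0 CPM) and mercury (46.1, 35.8, and 28.0 CPM) lay above both. The LFC against non-treated cells was then -1.67 ± 0.51 for arsenic, 2.30 for cadmium, and 2.71 for mercury. In summed counts, arsenic was at 0.310 (0.17 to 0.54) of the non-treated level, 0.0641 (0.0368 to 0.104) of the cadmium level, and 0.0468 (0.027 to 0.0761) of the mercury level.

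ARC, which encodes a capsid-like protein best known as an activity-induced regulator of synapses, departed later. Up to 12 h, no group mean was below 2.51 or above 6.55 CPM. The lowest of these was cadmium at 6 h, with an LFC of -1.19 ± 0.46 against non-treated cells. Its summed counts were 0.425 (0.241 to 0.725) of the non-treated level, but the libraries of these groups overlapped. At 24 h, ARC had 5.14, 8.28, and 4.6 CPM without metal, 2.67, 0.866, and 2.35 CPM with arsenic, 14.5, 16.0, and 17.6 CPM with cadmium, and 16.6, 18.2, and 18.4 CPM with mercury. Arsenic lay below and both other metals above every non-treated library, with an LFC of -1.61 ± 0.45, 1.41, and 1.57. The summed arsenic counts were 0.325 (0.184 to 0.55) of the non-treated level and 0.122 (0.0717 to 0.197) of the cadmium level.

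EGR1 and NR4A1, transcription factors that respond to growth factors and stress within the first hour, followed another course. Arsenic was not called lower than non-treated cells at any time point, which also held for MYC and ZFP36. Relative to mercury, EGR1 was lower with arsenic, with an LFC of -2.51 at 1.5 h and -0.36 at 24 h. With mercury at 1.5 h, EGR1 had 296, 283, and 295 CPM against 28.9, 34.8, and 35.3 CPM in non-treated libraries, an LFC of 3.14 ± 0.19 (adjusted p = 8.57e-21). Mercury kept EGR1 higher at 3 h (1.66 ± 0.23), 6 h (0.80 ± 0.23), 12 h (1.06 ± 0.21), and 24 h (0.67 ± 0.19), but the call at 6 h (adjusted p = 0.0173) was lost without any of 3 libraries (non-treated replicates 1 and 3 and mercury replicate 1, adjusted p = 0.0661 to 0.111). Arsenic libraries at 1.5 h had 59.7, 49.8, and 44 CPM, all above the non-treated ones, but the LFC of 0.63 ± 0.20 did not pass (adjusted p = 0.199). Cadmium was called at 12 h (0.81 ± 0.21, adjusted p = 0.0088), and without non-treated replicate 1 or 3 it was not (adjusted p = 0.0827 and 0.0853).

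The 24 h value of EGR1 is the one that set it apart from IER3, ARC, and HBEGF: arsenic libraries had 50.7, 48.8, and 28.5 CPM and overlapped both the non-treated (33.4, 31.6, and 38.0 CPM) and the cadmium libraries (44.4, 52.5, and 33.3 CPM). The arsenic LFC was 0.31 ± 0.20 (adjusted p = 0.323). NR4A1, an orphan nuclear receptor, was higher with mercury at 3 h (LFC 1.58 ± 0.41, adjusted p = 0.0224), 6 h (1.97 ± 0.43, adjusted p = 0.00101), 12 h (1.91 ± 0.40, adjusted p = 0.000255), and 24 h (1.40 ± 0.38, adjusted p = 0.00325), and with cadmium at 12 h (1.86 ± 0.40, adjusted p = 0.00091). The NR4A1 call at 3 h was lost without any of 4 libraries (adjusted p = 0.089 to 0.296) and that at 24 h without mercury replicate 2 (adjusted p = 0.0596). At 12 h, NR4A1 had 5.31, 5.45, and 8.66 CPM with arsenic, above the non-treated 2.51, 4.31, and 3.66 CPM and below the cadmium 14.9, 11.7, and 11.9 CPM, and the arsenic LFC of 0.89 ± 0.42 did not pass (adjusted p = 0.275).

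IER2 and IER5, related nuclear proteins of which IER5 is known as a regulator of heat-shock factor, showed small but tightly measured changes. IER2 was the 1 gene of the 8 called higher with arsenic, at 1.5 h, with 758, 851, and 613 CPM against 523, 536, and 549.8 CPM (LFC 0.47 ± 0.09, adjusted p = 0.0222). This call was lost without any of 5 of the 6 libraries (adjusted p = 0.138 to 0.808) and was kept only without arsenic replicate 3. At 12 h, IER2 was lower with arsenic (370.1, 375, and 367 CPM against 516, 467, and 420.4 CPM, LFC -0.34 ± 0.10, adjusted p = 0.0256), a call that was also lost in 5 of 6 such fits (adjusted p = 0.0596 to 0.228). At 24 h, the arsenic LFC of IER2 was -0.38 ± 0.10 (adjusted p = 0.00282), lost without arsenic replicate 3 (adjusted p = 0.0594). Mercury raised IER2 at 1.5 h (0.87 ± 0.09, adjusted p = 3.95e-10), 3 h (0.69 ± 0.10), 12 h (0.42 ± 0.10), and 24 h (0.80 ± 0.09, adjusted p = 2.82e-10), and cadmium was not called at any time point.

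IER5 moved below the non-treated level with arsenic at 12 h. At 6 h, its arsenic libraries already lay below all cadmium and mercury libraries (LFC -0.32 and -0.33), but they overlapped the non-treated ones (0.05 ± 0.10). At 12 h, IER5 had 101, 119, and 118 CPM with arsenic, 139.5, 161, and 138 CPM without metal, 258, 269, and 287 CPM with cadmium, and 247, 299, and 245 CPM with mercury. Arsenic lay below all non-treated libraries (LFC -0.38 ± 0.10, adjusted p = 0.0191) and cadmium (0.89 ± 0.10, adjusted p = 3.38e-10) and mercury (0.85 ± 0.10, adjusted p = 7.07e-10) above them. The arsenic call was lost without non-treated replicate 2 or arsenic replicate 1 (adjusted p = 0.182 and 0.191). At 24 h, IER5 was at 148, 149, and 133 CPM with arsenic against 190.4, 205, and 216 CPM (LFC -0.51 ± 0.10, adjusted p = 0.00017), and this call was kept with any library left out. Mercury was at an LFC of 0.86 ± 0.10 (adjusted p = 1.08e-10) at 24 h and cadmium at 0.31 ± 0.10 (adjusted p = 0.0922). At 6 h, IER5 was also called with cadmium (0.37 ± 0.10, adjusted p = 0.0376) and mercury (0.38 ± 0.10, adjusted p = 0.00914), the former lost in 5 of 6 fits with a library left out (adjusted p = 0.0802 to 0.143) and the latter without mercury replicate 3 (adjusted p = 0.0907).

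KLF6, a Krüppel-like transcription factor, was the gene whose fall arsenic and mercury shared. It was at 145, 157, and 128 CPM with arsenic at 24 h and at 174, 209, and 212 CPM with mercury, against 313, 289, and 279.7 CPM in non-treated and 281, 318, and 267 CPM in cadmium libraries. The LFC was -1.04 ± 0.09 for arsenic (adjusted p = 1.04e-14), -0.57 ± 0.09 for mercury (adjusted p = 5.15e-07), and -0.02 ± 0.09 for cadmium (adjusted p = 0.956). Arsenic was already lower at 12 h, with 185, 174, and 164 CPM against 241, 244, and 247 CPM (-0.49 ± 0.09, adjusted p = 8.72e-05). Earlier, KLF6 was higher with mercury at 1.5 h (0.68 ± 0.09, adjusted p = 9.01e-08) and 3 h (0.52 ± 0.09, adjusted p = 2.4e-05) and with cadmium at 6 h (0.38 ± 0.09, adjusted p = 0.00631), so that the direction with mercury turned within the day. These 6 calls were kept with any of their libraries left out.

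MYC, the growth-promoting transcription factor, and ZFP36, which encodes tristetraprolin, a protein that speeds the decay of AU-rich mRNAs, were higher with cadmium and mercury at 12 h. MYC had 18.1, 13.3, and 19.6 CPM with cadmium and 11.8, 15.2, and 14 CPM with mercury at that time, against 2.23, 6.78, and 5.23 CPM without metal (LFC 1.84 ± 0.45, adjusted p = 0.00389, and 1.54 ± 0.45, adjusted p = 0.0123). Both MYC calls were lost without non-treated replicate 1 (adjusted p = 0.0625 and 0.114). Arsenic gave 3.07, 9.18, and 6.82 CPM, which overlapped the non-treated values (LFC 0.43 ± 0.48, adjusted p = 0.755). ZFP36 had 4 counts in the 3 non-treated libraries at 12 h, 73 with cadmium, 69 with mercury, and 19 with arsenic. The ratio per depth was 23.9 (8.93 to 89.9) for cadmium (adjusted p = 0.00107), 21.2 (7.91 to 79.9) for mercury (adjusted p = 0.000906), and 4.65 (1.55 to 18.8) for arsenic, whose test did not pass (adjusted p = 0.392). ZFP36 had at least 10 counts in all libraries of 4 groups, of which 3 are mercury groups and 1 is cadmium at 12 h. The filter on low counts did not ask for whole groups. Non-treated libraries met it too, with 10 counts at 1.5 h (replicate 2), 13 at 3 h (replicate 2), and 23 at 24 h (replicate 3). Its test therefore did not rest on those 4 groups. With no filter, its calls with cadmium and mercury at 12 h and with mercury at 24 h were kept. At 24 h, ZFP36 was called with mercury (LFC 2.04 ± 0.69, adjusted p = 0.0208), where the libraries overlapped and the call was lost without any of 4 libraries (adjusted p = 0.0644 to 0.143) and with DESeq2 (adjusted p = 0.081).

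Set directly against cadmium, arsenic moved apart between 3 and 12 h. The number of genes of the 10 whose arsenic libraries all lay below all cadmium libraries was 1 at 1.5 h (6.03% of all genes), 2 at 3 h (5.5%), 5 at 6 h (7.23%), all 10 at 12 h (11.8%), and 6 at 24 h (12.7%). Since the genes were chosen for this contrast, the counts only describe it. At 12 h, the LFC of arsenic relative to cadmium ran from -0.48 (EGR1 and IER2) to -4.46 ± 0.50 (IER3). At 24 h, it was -3.96 ± 0.44 for IER3, -3.02 ± 0.42 for ARC, -1.55 ± 0.15 for HBEGF, -1.01 ± 0.09 for KLF6, -0.81 ± 0.10 for IER5, and -0.67 ± 0.10 for IER2. EGR1 (-0.04 ± 0.19), NR4A1 (0.17 ± 0.40), MYC (-0.18 ± 0.48), and ZFP36 (0.29 ± 0.76) overlapped again at 24 h. Between 12 and 24 h, the mean of NR4A1 with cadmium went from 12.8 ± 1.82 to 5.44 ± 2.11 CPM, beside 6.47 ± 1.89 and 6.22 ± 0.725 CPM with arsenic. The mean of EGR1 with arsenic went from 26.4 ± 5.16 to 42.7 ± 12.3 CPM, beside 36.9 ± 1.23 and 43.4 ± 9.65 CPM with cadmium.

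Against mercury, arsenic was apart from the first time point on. Arsenic libraries all lay below all mercury libraries for 7 of the 10 genes at 1.5 h (9.03% of all genes), 7 at 3 h (9.38%), 7 at 6 h (10.3%), and 9 at both 12 h (13.4%) and 24 h (14.8%). The early gap was widest for EGR1 (LFC -2.51 ± 0.18 at 1.5 h) and the late one for IER3 (-4.38 ± 0.44 at 24 h), followed by ARC (-3.17 ± 0.42) and HBEGF (-2.91 ± 0.15). ARC libraries overlapped up to 12 h, with an LFC of 0.08, 0.09, -0.32, and -0.69 and an SE of 0.37 to 0.42, and ARC was the 1 gene of the 10 that still overlapped at 12 h. At 6 h, the IER3 values of -2.40 relative to cadmium and -2.34 relative to mercury became -3.4 and -3.34 without arsenic replicate 1, which held 8 of the 12 arsenic counts.

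**Figure D3:**
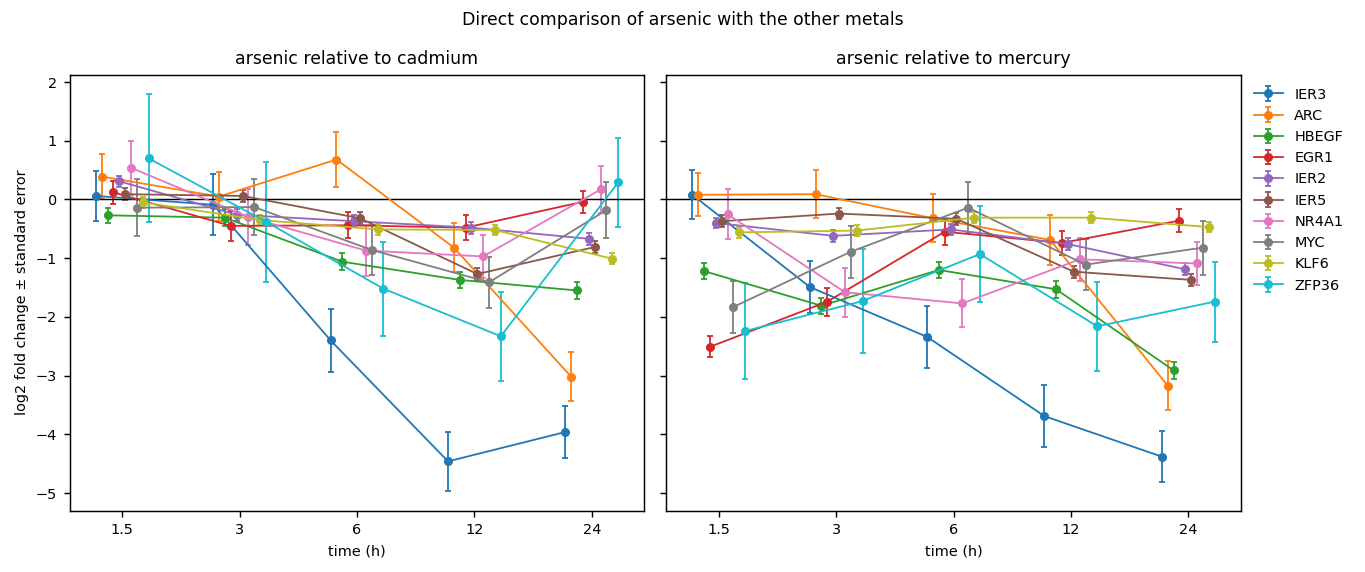
LFC of arsenic relative to cadmium (left) and to mercury (right) for the 10 genes at the 5 time points (horizontal axis, evenly spaced), with bars of 1 standard error. Values below 0 are lower with arsenic, and all 10 genes are below 0 relative to cadmium at 12 h, and IER3 reaches -4.46 there and -4.38 relative to mercury at 24 h.

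Cadmium and mercury, a contrast that does not involve arsenic, differed early and late and less in between. Of the 8 genes tested, cadmium was lower than mercury for 6 at 1.5 h (0.535% of all genes were), 3 at 3 h (1.29%), and 5 at 24 h (10.3%), and higher for 1 at 24 h (9.7%). At 6 h (1.64% of all genes higher, 2.14% lower) and 12 h (1.48% and 1.81%), 0 of the 8 were called by edgeR, with 2 at an unadjusted p under 0.05 at each time, and 0 by DESeq2, which gave no adjusted p for ZFP36 at either. At 1.5 h, EGR1 was lower with cadmium by an LFC of -2.63 ± 0.18 (adjusted p = 3.92e-18) and HBEGF by -0.96 ± 0.13 (adjusted p = 2.16e-07). At 24 h, HBEGF (-1.36 ± 0.13, adjusted p = 5.09e-13), IER5 (-0.55 ± 0.10, adjusted p = 1.47e-05), and IER2 (-0.52 ± 0.09, adjusted p = 2.68e-05) were lower with cadmium and KLF6 was higher (0.54 ± 0.09, adjusted p = 2.78e-06). IER3 and ARC, given without a test, had overlapping cadmium and mercury libraries at 24 h. Of the 15 calls, 5 were lost without a single library. IER5 at 1.5 h was lost without mercury replicate 1 (adjusted p = 0.095), and MYC at 1.5 h without any of 5 libraries (highest adjusted p = 0.245). IER2 at 3 h was lost without any of 3 libraries (0.143), and at 24 h ZFP36 without any of 4 (0.155) and NR4A1 without cadmium replicate 3 or mercury replicate 2 (0.135).

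The wider class of immediate-early genes was read from a list of 50 further genes (AP-1 and ATF factors, DUSP phosphatases, stress-induced regulators), of which 48 were tested. With mercury, 16, 24, 19, 25, and 29 of the 48 were higher at the 5 time points in turn, and with cadmium 0, 6, 19, 19, and 14, beside the shares of all genes given above. With arsenic, 1, 1, 4, 7, and 11 were higher (2.37% of all genes at 12 h and 6.54% at 24 h), and 8 at 12 h and 7 at 24 h were lower. The median LFC of the 48 at 24 h was 1.06 with mercury, 0.31 with cadmium, and 0.08 with arsenic. With mercury, 1, 1, 2, 3, and 5 of the 48 were lower at the 5 time points in turn, and with cadmium 0, 0, 0, 1, and 1. With mercury at 24 h, 29 were higher and 5 lower, beside 13.9% of all genes in each direction, a share that the lower calls did not exceed. For the lower calls with mercury before 24 h, the share of all genes is not given. With arsenic at 24 h, 11 of the 48 were higher and 7 lower, and of the 8 tested genes above 4 were lower. The difference between the sets of genes was not tested. CEBPB, a bZIP factor (LFC 1.73 ± 0.12, adjusted p = 7.98e-19), and DUSP4, a MAP kinase phosphatase (1.53 ± 0.18, adjusted p = 4.25e-10), were the highest with arsenic at 24 h, and TNFAIP3, an NF-κB inhibitor (-2.15 ± 0.32, adjusted p = 2.78e-07), and RHOB, a small GTPase (-1.35 ± 0.21, adjusted p = 1.1e-06), the lowest.

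Other named genes of the list differed in how many of the metals moved them. At 24 h, FOSB, an AP-1 subunit, was at 0.461 ± 0.407 CPM without metal and 0.305 ± 0.0246 CPM with arsenic, but at 7.70 ± 4.9 CPM in cadmium and 20.4 ± 3.28 CPM in mercury libraries, and was called with cadmium (adjusted p = 0.000716) and mercury (adjusted p = 6.86e-08). FOS was called with mercury at 24 h (10.2 ± 6.71 against 0.294 ± 0.288 CPM, adjusted p = 2.77e-05). ATF3, a stress-induced repressor, was higher at 24 h with all 3 metals, arsenic (LFC 1.08 ± 0.29, adjusted p = 0.00653), cadmium (2.12 ± 0.27, adjusted p = 2.44e-08), and mercury (3.74 ± 0.26, adjusted p = 2.24e-19), and with mercury already at 3 h (2.43 ± 0.29, adjusted p = 4.07e-09). PPP1R15A (GADD34), which reverses eIF2α phosphorylation, was the highest of the list with cadmium at 3 h (1.16 ± 0.17, adjusted p = 3.91e-06) and was higher with mercury too (2.07 ± 0.16, adjusted p = 2.08e-16). At 24 h, PPP1R15A was also higher with arsenic, at 83.7 ± 8.11 against 34.8 ± 1.46 CPM (1.26 ± 0.16, adjusted p = 2.32e-09). With arsenic at 3 h the 1 call was GADD45B (0.55 ± 0.11, adjusted p = 0.00624). With mercury at 24 h, ID1 (-0.63 ± 0.09, adjusted p = 4.15e-08) and CCN1 (-0.66 ± 0.15, adjusted p = 0.000434) were the lowest. The calls of the list genes were not tried with libraries left out.

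Relatives of the genes and partners of their products changed in part. Of 13 tested relatives (other IER, EGR, KLF, NR4A, ZFP36, and MYC genes), arsenic had 0 higher at every time point, and 2 lower at 6 h (0.308% of all genes were), 3 at 12 h (1.74%), and 2 at 24 h (7.75%). Cadmium had 5 higher at 6 h (1.6%), 1 at 12 h (5.19%), and 1 at 24 h (1.56%), and mercury 1, 4, 1, 4, and 6 at the 5 time points in turn (0.478%, 1.39%, 4.49%, 8.89%, and 13.9%). Mercury also had 1 lower at each of 6 h, 12 h, and 24 h (13.9% of all genes were lower at 24 h). The genes lower with arsenic at 24 h were KLF2 (LFC -1.46 ± 0.30, adjusted p = 0.00022) and ZFP36L2 (-0.90 ± 0.10, adjusted p = 3.19e-11). ZFP36L2 was also the relative lower with mercury at 24 h (-0.26 ± 0.09, adjusted p = 0.0314). The genes higher with mercury at 24 h were led by NR4A2 (2.24 ± 0.44, adjusted p = 4.76e-05) and KLF5 (2.01 ± 0.31, adjusted p = 3.63e-07), and the gene higher with cadmium was ZFP36L1 (0.80 ± 0.09, adjusted p = 1.89e-09). Of 5 tested EGF-family ligands and receptors other than HBEGF, arsenic at 24 h had 1 lower, EGFR (-0.45 ± 0.14, adjusted p = 0.0218, beside 7.75% of all genes), and mercury had 1 lower, ERBB2 (-1.03 ± 0.28, adjusted p = 0.00271, beside 13.9%). In the MYC network of 9 genes, arsenic had 2 higher at 24 h (6.54% of all genes were), cadmium 1 (1.56%), and mercury 3 (13.9%). Mercury also had 1 lower at 24 h, MXD3 (-1.38 ± 0.32, adjusted p = 0.000676, beside 13.9% of all genes). MXD1, an antagonist that competes with MYC for MAX, was higher at 24 h with arsenic (1.32 ± 0.29, adjusted p = 0.000722), cadmium (1.63 ± 0.29, adjusted p = 7.59e-05), and mercury (3.4 ± 0.27, adjusted p = 1.1e-16).

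Across the 20 group means of log2 CPM, the 10 genes did not move as a single block. These correlations describe groups that share a cell line and time points, and 9498 genes with enough counts were compared. The gene most like IER3 was IER5 (Pearson r = 0.901), followed by MYADM (0.890), GADD45B (0.812), GPRC5A (0.807), and TFPI (0.804). HBEGF was most like ARID3B (0.955) and IER2 (0.897), with CSRNP1 (0.879), DUSP1 (0.877), and ITPRIP (0.876) next, and ARC was most like BRD2 (0.869) and ID2 (0.817). Within the 10 genes, IER3 and ARC were at r = 0.72, whereas KLF6 was at most 0.49 with any other member (HBEGF) and at -0.08 with ZFP36.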

How the data were processed

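RNA of 60 libraries of 1321N1 cells was sequenced from the 3′ end (QuantSeq FWD, 100-base single-end reads). Alignment to GRCh38 was done by the authors with STAR 2.7.9a, who then counted reads by strand on GENCODE 43 genes in Union mode, leaving out secondary alignments and reads on more than 1 gene. The deposited values are whole-number counts per gene without normalization. The 92 spike-in rows held 0 counts and were left out.

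Counts were analysed in edgeR 4.0.16 (R 4.3.3) with TMM factors (0.934 to 1.03), filterByExpr (minimum count 10, minimum total 15), 1 mean per group, and the quasi-likelihood test, with Benjamini-Hochberg adjustment over 12341 genes within each comparison and a threshold of 0.05. SE is the LFC divided by the square root of F. The common biological coefficient of variation was 0.12. Total counts of 2215276 to 4404609 per library (median 3291417) set the precision, and intervals cover counting error only.

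The 10 genes and all gene lists were chosen with earlier results of these data known. No test is given for arsenic against cadmium or mercury, nor for IER3 and ARC with any metal. Beside the 10 genes, those named are the 2 highest and 2 lowest called genes of each list at 3 and 24 h for each metal (some of these are not repeated in the text) and the 5 genes most like IER3 and HBEGF. The same rule was applied to ARC, where part of the result is not reported here. On simulated counts of 12083 genes for arsenic against non-treated cells at 24 h, the test called 156 of 200 changed and 8 unchanged genes. The changed genes had an LFC of 1 or 2 in either direction, and smaller changes were not simulated. Replicates were not copies (lowest chi-square per degree of freedom 2). To check whether replicate numbers pair libraries, deviations from the group means were correlated between metal and non-treated libraries of equal number (median r -0.008, 45 pairs, 0 of them over 0.1), and no pairing was assumed. Alternatives were DESeq2 1.42.0, RLE size factors, no filter, a stricter filter, a replicate block, fits restricted to the 2 groups compared, and leaving out each library. Promoter sequences are from RefSeq. The authors' genetic screens were not analysed here.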

Additional observations from a re-analysis of the deposited data

Results flagged for a closer look

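Cadmium and mercury differed by the direct test in 15 values of the 8 tested genes. Cadmium was lower at 1.5 h for HBEGF (LFC of cadmium relative to mercury -0.96), EGR1 (-2.63), IER2 (-0.71), IER5 (-0.47), MYC (-1.68), and KLF6 (-0.51), and at 3 h for HBEGF (-1.5), EGR1 (-1.28), and IER2 (-0.37). At 24 h it was lower for HBEGF (-1.36), IER2 (-0.52), IER5 (-0.55), NR4A1 (-1.26), and ZFP36 (-2.03) and higher for KLF6 (0.54).

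In several genes every arsenic library lay below all non-treated libraries, and every library of another metal above them. The difference between the metals was not tested in these, because the genes were chosen for it. At 24 h this was so for IER3 (LFC against non-treated cells -1.67 with arsenic, 2.30 with cadmium, and 2.71 with mercury), ARC (-1.61, 1.41, and 1.57), HBEGF (-1.02, 0.53, and 1.89), IER2 (-0.38, 0.29, and 0.80), and IER5 (-0.51, 0.31, and 0.86). Earlier, IER5 at 12 h (-0.38, 0.89, and 0.85) and HBEGF at 6 h (-0.37, 0.69, and 0.83) had this order with both metals. IER2 at 6 h (-0.24 with arsenic and 0.13 with cadmium) and KLF6 at 6 h (-0.13 and 0.38) had it with cadmium, and IER2 at 12 h (-0.34 with arsenic and 0.42 with mercury) with mercury. By the edgeR test against non-treated cells, HBEGF (adjusted p = 0.346), IER2 (0.347), and KLF6 (0.684) were not called with arsenic at 6 h. With cadmium, IER2 at 6 h (0.621) and 24 h (0.104) and IER5 at 24 h (0.0922) were not called either. With 3 libraries a group, such an order can arise without a difference, and the share of all genes that had it was not counted.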

How the results depend on the processing

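No called LFC, and no untested LFC between groups that did not overlap, changed direction under any alternative that was run. The remaining LFCs were not checked for this. The replicate block left the counts of called values at 1 higher and 7 lower for arsenic, 10 higher for cadmium, 26 higher and 1 lower for mercury, 1 and 14 for cadmium against mercury, and 2 and 8 for the non-treated time points, as without it, and ended no call, nor did RLE size factors or the stricter filter. Leaving out single libraries gave 0 to 1 higher and 5 to 7 lower with arsenic, 8 to 11 higher with cadmium, 24 to 28 with mercury, 12 to 14 lower for cadmium against mercury, and 0 to 2 higher and 6 to 9 lower for the non-treated time points. The count of values higher with arsenic was 2 with no filter and 0 with only the 2 groups compared, and that of non-treated values higher was 1 with only the 2 groups and 1 with DESeq2. Fitting only the 2 groups compared ended the calls of IER2 with arsenic at 1.5 h (adjusted p = 0.123), IER5 with arsenic at 12 h (0.0588), HBEGF with cadmium at 24 h (0.186), and NR4A1 without metal at 24 h (0.0835). No filter ended IER5 with cadmium at 6 h (0.0747), and DESeq2 ended ZFP36 with mercury at 24 h (0.081) and, for cadmium against mercury, MYC at 1.5 h (0.0669) and ZFP36 at 24 h (0.0927). The cause was not tested. DESeq2 gave no adjusted p for NR4A1 with mercury at 6 h or without metal at 24 h. The same was so for IER3 without metal at 6 and 12 h, so these calls were not checked with DESeq2. Depth limits IER3, ZFP36, and NR4A1 most, whose non-treated libraries hold 3 counts or fewer at some time points.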
